A study of Homo sapiens with 18 samples.

Results

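The 6 arrays described here compare ΔNp53:WTp53 with empty vector in NCI-H1299 cells, a human non-small cell lung carcinoma line that lacks p53. They are the 3 arrays titled ΔNp53:WTp53 and the 3 titled Empty vector in experiments 0, 4 and 5, out of 18 arrays in the series. Of 33297 probe sets in the table, 19460 carry exactly 1 gene symbol and all of these were tested, without a filter on level. Cells received either the pIRES-2EGFP plasmid, which encodes green fluorescent protein, or the same plasmid carrying ΔNp53:WTp53, by transient transfection with Lipofectamine 2000. Green fluorescent cells were sorted, and total RNA was taken 40 hours after transfection. ΔNp53:WTp53 combines wild-type p53 with the N-terminally shortened isoform ΔNp53. The labels do not say how the parts were joined or how much protein was made, and none of the arrays used here carried ΔNp53 alone. Per the series design, experiments 0, 4 and 5 were independent transfections; all used 1 cell line. WTp53 arrays of the same experiments share the fit and are used below where the combination is set against WTp53.

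p53 is a transcription factor that works as a tetramer, binds a repeated sequence in or near its target genes and is held low by the ubiquitin ligase MDM2. Its direct targets stop the cell cycle, chiefly through the kinase inhibitor p21, and promote apoptosis, DNA repair and metabolic control. Genes of mitosis and DNA replication fall when p53 is active, in the main through p21 and repressor complexes that contain the MuvB core, which binds the cell cycle genes homology region (CHR) of mitotic promoters, often near CCAAT boxes bound by NF-Y. ΔNp53 lacks the first transactivation domain and can form mixed tetramers with full-length p53; mice that make too much of the corresponding isoform age early.

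Promoter sequences are shown first for 4 genes of mitosis that fell with ΔNp53:WTp53 and for the repair gene DDB2, which rose, because they carry the short motifs counted below. Each is given 5′ to 3′ on the strand of the gene, from RefSeq on GRCh38.p14, in lower case, ending at the start of the transcript except for DDB2. Capitals mark TTTGAA, the core of the CHR, and CCAAT in the first 4, on either strand (TTCAAA and ATTGG are the reverse complements). CCNB2 encodes cyclin B2 (chr15:59104996-59105145, plus strand), CDK1 the mitotic kinase that it activates (chr10:60778328-60778477, plus strand), KIF4A a chromosome-bound kinesin (chrX:70289954-70290103, plus strand) and KIF18A a kinesin of the kinetochore fibres (chr11:28108157-28108306, minus strand).
CCNB2: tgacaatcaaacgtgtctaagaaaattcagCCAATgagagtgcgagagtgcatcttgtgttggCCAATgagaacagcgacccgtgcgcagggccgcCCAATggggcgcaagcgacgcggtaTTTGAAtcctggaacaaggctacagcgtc
CDK1: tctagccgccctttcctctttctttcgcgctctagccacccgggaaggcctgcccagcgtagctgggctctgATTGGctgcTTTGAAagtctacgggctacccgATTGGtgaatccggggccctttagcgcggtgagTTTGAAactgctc
KIF4A: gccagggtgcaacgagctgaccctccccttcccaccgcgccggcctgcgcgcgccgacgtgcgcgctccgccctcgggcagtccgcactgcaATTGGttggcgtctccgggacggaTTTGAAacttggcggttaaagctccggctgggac
KIF18A: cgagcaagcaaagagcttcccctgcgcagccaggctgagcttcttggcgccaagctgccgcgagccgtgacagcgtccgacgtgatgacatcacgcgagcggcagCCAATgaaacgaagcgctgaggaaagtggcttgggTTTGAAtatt
For DDB2, which recognizes ultraviolet damage (chr11:47214929-47214988, plus strand), capitals mark a match to the p53 response element consensus with 1 mismatch. The match begins 5 bases before the transcript start, runs past it and itself holds a TTTGAA.
DDB2: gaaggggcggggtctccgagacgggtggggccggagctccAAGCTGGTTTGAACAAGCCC

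These letters were counted in windows of 250 bases before to 50 after each start, which were found for 14239 of 18417 genes (20096 windows). TTTGAA on either strand was present in 12.3% of all windows, in 50.8% of the 120 windows of 4 lists of mitosis genes, in 4.62% of 65 windows of replication genes and in 13.7% of 102 windows of p53 target and feedback genes. CCAAT was present in 34.5%, 64.2%, 56.9% and 35.3% of the same windows, and both together in 4.88%, 35.8%, 1.54% and 2.94%. Within the mitosis lists 53 of 57 genes with TTTGAA in a window fell (median −1.11) and 34 of 38 without it fell (median −0.96). Among all genes with both motifs in 1 window, 27.4% of 923 fell, against 19.6% of 7139 genes with neither, at medians of −0.03 and 0.02. Leaving out the mitosis lists, 216 of 883 genes with both fell (24.5%, median −0.02). The p53 consensus with at most 1 mismatch was found in 5 windows of all genes (0.0249%), of which DDB2 was the only one in the p53 lists and is printed for that reason. This search required the fixed C and G of both repeats and allowed no bases between the repeats, so other forms of the site were not counted. DDB2 differed by 1.45 and rose. AHCYL2 differed by −0.56 and fell. PTCHD4 (0.24, a match with 0 mismatches), IGFBP2 (0.16) and TTC8 (−0.06) were not called. Such matches describe the letters of a window and not binding, and a gene without one may have a site elsewhere.

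Values are log2 intensities as the authors deposited them, and differences are ΔNp53:WTp53 minus vector on the log2 scale ± their standard error in a limma fit, with 3 arrays per group. A gene counts as changed at a limma p adjusted by Benjamini-Hochberg over all 19460 probe sets under 0.05. A difference within an experiment comes from 1 array per group and has no test. Array medians ran from 4.89 to 4.97. The median standard deviation of a probe set was 0.151 over the ΔNp53:WTp53 arrays, 0.104 over the vector arrays and 0.109 over the WTp53 arrays. Among markers of other cell types, 0 of 9 leukocyte, 0 of 9 fibroblast and endothelial and 0 of 4 neuroendocrine genes were called, and the mean of the leukocyte list was 4.50 to 4.65 with vector and 4.53 to 4.57 with ΔNp53:WTp53. Of the epithelial and line markers KRT8, KRT18, KRT19, VIM, EPCAM, CDH1 and CDH2, 2 of 7 were higher. The list mean of these was 6.99 to 7.26 with vector and 7.37 to 7.45 with ΔNp53:WTp53. Of 7 surfactant and other lung epithelial markers 2 were higher as well, with list means of 4.30 to 4.39 and 4.41 to 4.83. Arrays of experiment 0 stood apart in interferon-stimulated genes in all groups, as described further on.

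In all, 2982 probe sets rose (15.3%) and 3918 fell (20.1%) with ΔNp53:WTp53, so that 35.5% of all probe sets were called. At least 2-fold rises were seen in 934 (4.8%) and falls in 622 (3.2%), while at least 4-fold rises numbered 187 (0.961%) and falls 12 (0.0617%). Fewer probe sets rose than fell, but more rose at least 2-fold. All 3 ΔNp53:WTp53 arrays lay above all 3 vector arrays for 4011 probe sets (20.6%) and below them for 4770 (24.5%), 45.1% together, and the differences within the 3 experiments had 1 sign for 59.5% of all probe sets. Counted by gene, with the row of highest mean standing for a gene, 2887 genes rose (15.7%) and 3734 fell (20.3%) of 18417, and the median difference over all rows was 0.00. The list counts below are to be read against these shares.

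Experiment 0 gave smaller differences than experiments 4 and 5 in both directions, and more so for the genes that fell. Over the called probe sets the differences of experiments 0, 4 and 5 had median sizes of 0.41, 0.76 and 0.82. Among those that rose, the medians were 0.52, 0.86 and 0.81, and 88% were smaller in experiment 0 than the mean of the other two, at a median ratio of 0.647. Among those that fell, the medians were −0.35, −0.71 and −0.82, and 94.8% were smaller, at a median ratio of 0.457. For falls of at least 2-fold the medians were −0.69, −1.40 and −1.62, and for rises of at least 2-fold 1.08, 1.67 and 1.57. The sign in experiment 0 was that of the mean for 2967 of the 2982 rises and 3893 of the 3918 falls. These probe sets were called with the arrays of experiment 0 in the fit, so such agreement is largely built in. Over all called probe sets most of the gap came from the ΔNp53:WTp53 array: among the falls, its part had a median of 0.30 and that of the vector array 0.09, and among the rises 0.31 and 0.01. Across all probe sets, which are not independent, the differences correlated at r = 0.919 between experiments 4 and 5, 0.839 between 0 and 4, and 0.803 between 0 and 5. Experiment 0 was singled out with earlier results known, so these values are a description.

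**Figure D1:**
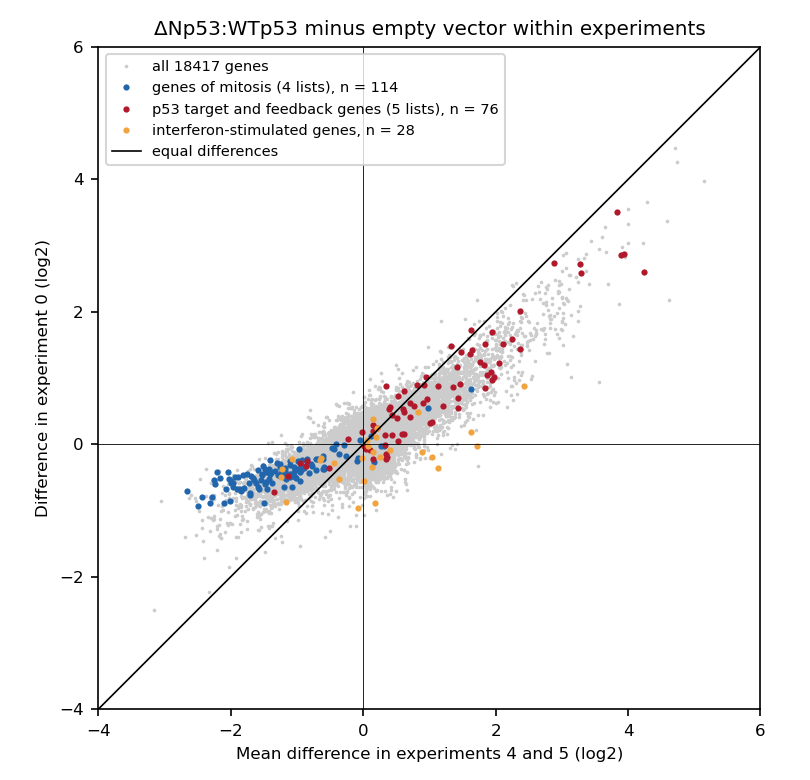
Difference between ΔNp53:WTp53 and vector in experiment 0 (vertical axis, log2) against the mean of experiments 4 and 5 (horizontal axis, log2) for 18417 genes, with 114 genes of mitosis in blue, 76 p53 target and feedback genes in red and 28 interferon-stimulated genes in orange. Most of the p53 genes that rose lie below the line of equal differences, whereas the mitosis genes spread far along the horizontal axis (medians of −1.05 and −1.52 in experiments 4 and 5) and little along the vertical axis (median of −0.44).

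The count of calls rested on having both experiments 4 and 5. Without any array of experiment 0, 8433 probe sets were called and 6684 of the 6900 calls were kept. Without experiment 4 the number was 1886 (1884 kept) and without experiment 5 it was 2609 (2597 kept), in fits where experiment 0 made up 1 of 2 arrays in each group. Of the 1556 called differences of at least 2-fold, 1092 and 1185 were kept without experiments 4 and 5.

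Direct p53 targets for arrest and growth control rose together: 18 of 21 measured genes rose and 0 fell, with a median of 0.97. CDKN1A, the gene of the p21 kinase inhibitor, stood at 5.86, 4.90 and 5.05 in the vector arrays of experiments 0, 4 and 5 and at 8.46, 9.18 and 9.25 in the ΔNp53:WTp53 arrays. It rose by 3.69 ± 0.26 (adjusted p = 2.06e-05). That is a 12.9-fold rise, and all 3 ΔNp53:WTp53 arrays lay far above the vector arrays, of which experiment 0 was the highest. PLK3, a stress-responsive polo-like kinase, read 5.93, 5.79 and 5.71 with vector and 8.78, 9.68 and 9.61 with ΔNp53:WTp53. It rose by 3.55 ± 0.21 (adjusted p = 8.66e-06). TP53INP1, a stress-induced protein of autophagy and cell death, read 5.96, 5.81 and 5.71 with vector and 8.83, 9.68 and 9.72 with ΔNp53:WTp53. It rose by 3.59 ± 0.22 (adjusted p = 1.03e-05). SESN1, a sestrin that restrains mTOR complex 1, stood at 5.97, 6.23 and 6.22 with vector and at 8.70, 9.06 and 9.14 with ΔNp53:WTp53 (experiments 0, 4 and 5). It rose by 2.83 ± 0.13. For each of these genes the ΔNp53:WTp53 array of experiment 0 was the lowest of its group and still above every vector array. GDF15, a secreted stress cytokine, had differences of 1.51, 1.52 and 2.16 in experiments 0, 4 and 5 and rose by 1.73 ± 0.12. Experiments 0, 4 and 5 gave list medians of 0.91, 1.11 and 1.0. Without experiment 4, 12 of the 21 genes passed, without experiment 5 13, and without experiment 0 20.

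**Figure D2:**
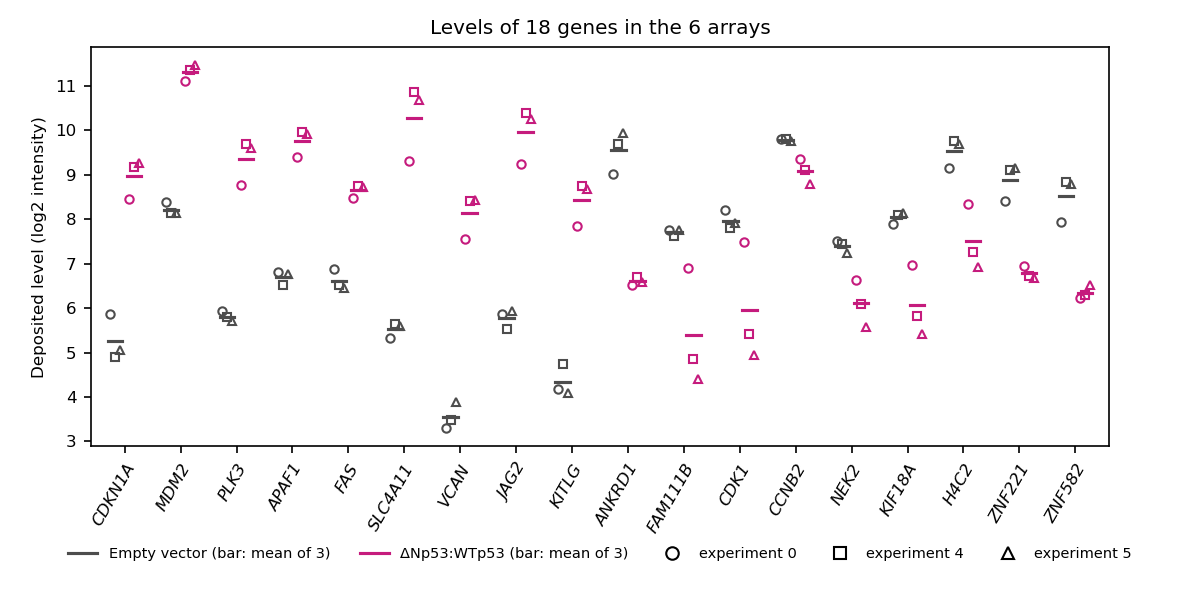
Deposited levels (log2 intensity) of 18 genes in the 3 vector arrays (grey) and the 3 ΔNp53:WTp53 arrays (magenta), with the experiment given by the symbol and the group mean by a bar. The groups do not overlap for any of these genes, which were picked from the called ones, nor for 45.1% of all probe sets. For CDK1, FAM111B and KIF18A the ΔNp53:WTp53 array of experiment 0 (circle) lies well above those of experiments 4 and 5.

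Of 10 genes listed as feedback regulators of p53, 7 rose and 2 fell. MDM2, the ubiquitin ligase that limits p53, stood at 8.38, 8.13 and 8.13 in the vector arrays of experiments 0, 4 and 5 and at 11.11, 11.35 and 11.46 in the ΔNp53:WTp53 arrays. It rose by 3.09 ± 0.11 (adjusted p = 7.37e-07). This was an 8.53-fold rise, with standard deviations of 0.146 over the vector and 0.183 over the ΔNp53:WTp53 arrays, small beside the rise. AEN, an apoptosis-enhancing nuclease, rose by 1.33 ± 0.10 and is counted among the cell death targets below as well. PPM1D, the phosphatase WIP1 that switches off the DNA damage response, rose by 0.68 ± 0.08. TRIM24, a ubiquitin ligase for p53, rose by 1.05 ± 0.10. In the opposite direction, MDM4, the MDM2 relative that inhibits p53, went from 6.97, 7.36 and 7.37 to 6.50, 6.45 and 6.01 and fell by 0.91 ± 0.16. MDM4 did not pass without experiment 4.

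Targets in cell death rose as broadly: 18 of 20 death receptor and apoptosis genes rose and 0 fell, with a median of 1.35 and within experiments 0, 4 and 5 of 1.01, 1.47 and 1.43. APAF1, the scaffold of the apoptosome, read 6.81, 6.52 and 6.77 with vector and 9.40, 9.95 and 9.92 with ΔNp53:WTp53. It rose by 3.05 ± 0.17 (adjusted p = 6.53e-06). TP53I3, a quinone oxidoreductase induced by p53, read 6.47, 6.76 and 6.52 with vector and 9.97, 10.38 and 10.56 with ΔNp53:WTp53. It rose by 3.72 ± 0.17 (adjusted p = 3.29e-06). FAS, the receptor of FAS ligand, read 6.88, 6.52 and 6.45 with vector and 8.48, 8.75 and 8.72 with ΔNp53:WTp53. It rose by 2.03 ± 0.13 (adjusted p = 9.26e-06). All 3 were lower in experiment 0 than in experiments 4 and 5 and did not overlap with the vector arrays. TNFRSF10A and TNFRSF10B, the TRAIL receptors, rose by 1.61 ± 0.14 and 0.80 ± 0.09. Genes that oppose apoptosis did not share this pattern, with 1 of 9 rising and 3 falling. CFLAR, the inhibitor of caspase-8 activation, rose by 0.95 ± 0.14, and its second probe set was not called. BIRC2, an inhibitor of apoptosis protein, fell by 0.67 ± 0.10, BIRC6 fell by 0.53 ± 0.15 and BIRC5, survivin, fell by 0.60 ± 0.13 while its second probe set was not called. BIRC6 and BIRC5 did not pass without experiment 4, nor without experiment 5. The call of BIRC6 was also lost without the vector array of experiment 4 or 5 or without the ΔNp53:WTp53 array of experiment 4 or 5.

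Targets in DNA repair were split, with 5 of 10 higher and 3 lower. DDB2, whose start site match is printed above, went from 7.13, 7.18 and 7.20 to 8.52, 8.62 and 8.71 and rose by 1.45 ± 0.09 (adjusted p = 8.66e-06). POLH, the translesion polymerase eta, rose by 1.86 ± 0.14, and RRM2B, the p53-induced subunit of ribonucleotide reductase, rose by 0.92 ± 0.09. POLK, another translesion polymerase, fell by 1.14 ± 0.19. Of 17 targets in metabolism and redox control 8 rose and 1 fell, with a median of 0.44. They included DHRS3, a retinal reductase (2.25 ± 0.22), PANK1, which starts coenzyme A synthesis (1.78 ± 0.17), TIGAR, which lowers glycolytic flux (1.53 ± 0.13), and ISCU, the scaffold of iron-sulphur clusters (1.19 ± 0.12). PRKAB2, a regulatory subunit of AMPK, fell by 0.65 ± 0.14. The median difference of the metabolism list was 0.53, 0.50 and 0.47 in experiments 0, 4 and 5. Its mean level, however, was 6.46, 6.41 and 6.41 with vector and 6.98, 7.14 and 7.17 with ΔNp53:WTp53. DHRS3, PANK1, TIGAR and ISCU each rose least in experiment 0, PANK1 by 1.23, 1.95 and 2.16. POLK and PRKAB2 did not pass without experiment 4, nor without experiment 5.

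Genes of mitosis fell almost as a whole. Of 114 measured genes in 4 lists, 101 fell and 2 rose, with a median of −1.01, and 57 fell at least 2-fold. By experiment the medians were −0.44 (0), −1.05 (4) and −1.52 (5), and the ΔNp53:WTp53 array of experiment 0 was above those of both other experiments for 104 of 114 genes. These falls leaned on experiments 4 and 5: 103 genes passed without experiment 0, but 2 without experiment 4 and 19 without experiment 5. In these bulk samples fewer cells in mitosis and less RNA per cell cannot be told apart.

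**Figure D3:**
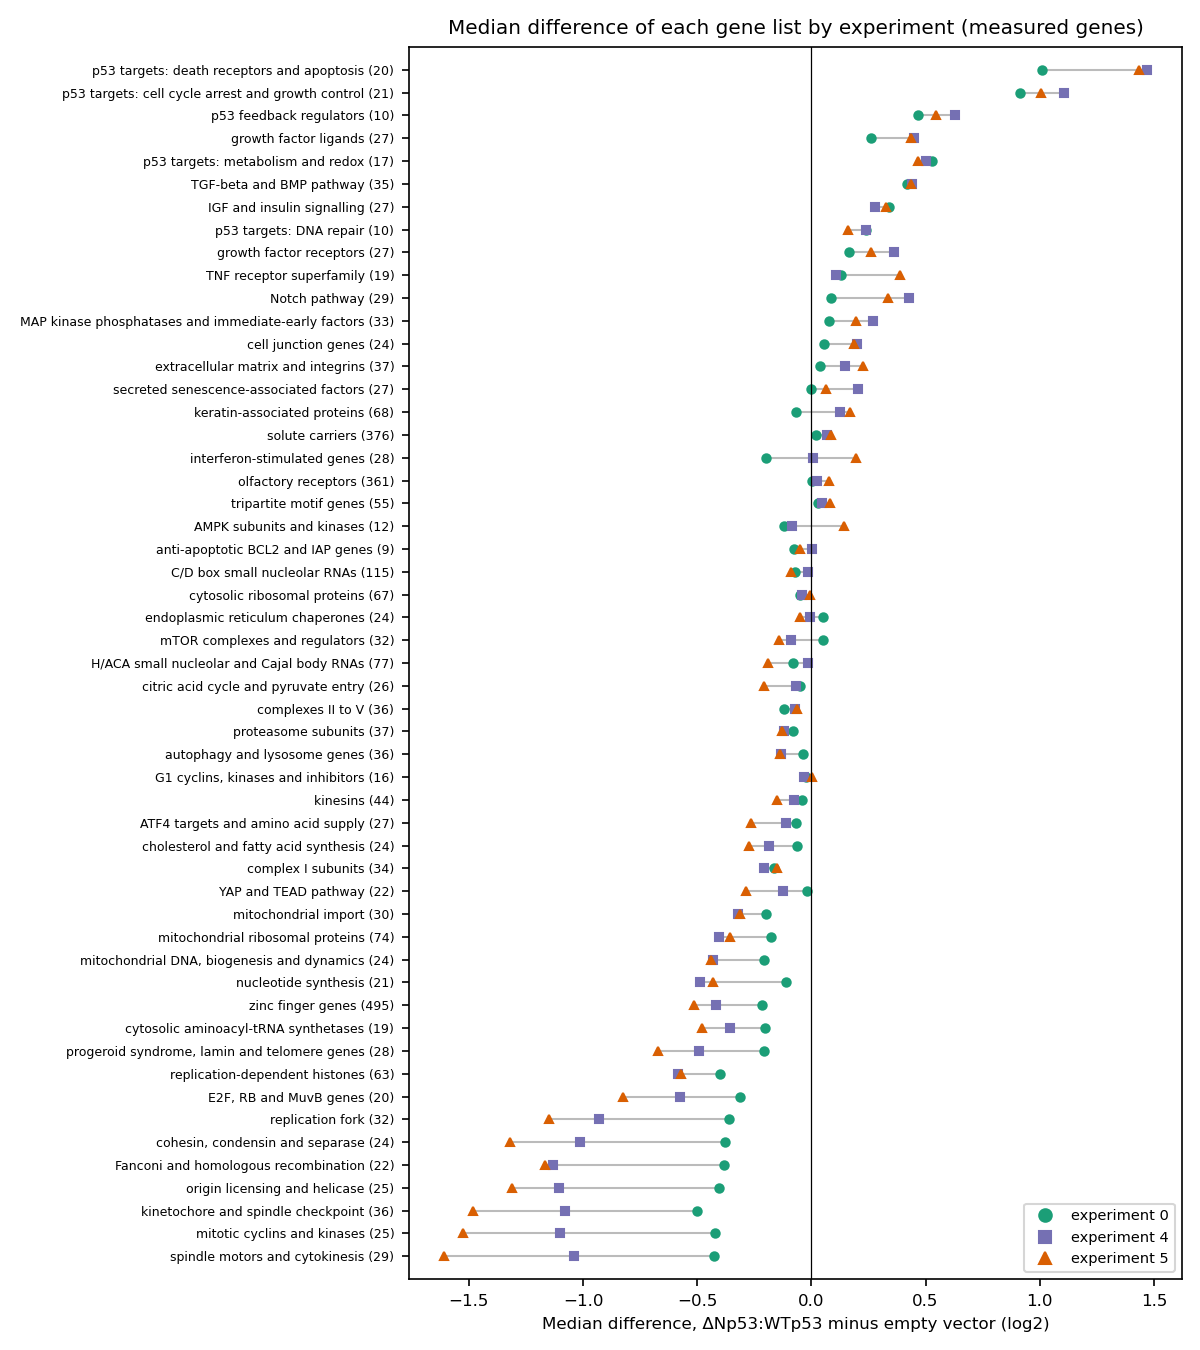
Median difference between ΔNp53:WTp53 and vector (log2) of each gene list in experiment 0 (green circle), 4 (purple square) and 5 (orange triangle), with the number of measured genes in brackets and lists ordered by their median over the 3 experiments. The lists of mitosis, replication and homologous recombination lie lowest, with experiment 0 between −0.36 and −0.50 and experiments 4 and 5 at −0.93 or lower, whereas the experiments lie close together for most of the other lists.

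Among mitotic cyclins and kinases 20 of 25 fell and 1 rose. CDK1, the kinase that drives entry into mitosis, stood at 8.20, 7.79 and 7.91 in the vector arrays of experiments 0, 4 and 5 and at 7.50, 5.42 and 4.95 in the ΔNp53:WTp53 arrays. It fell by 2.01 ± 0.61 (adjusted p = 0.027). The differences were −0.70, −2.38 and −2.95 in experiments 0, 4 and 5, a 4.03-fold fall on average, and the groups did not overlap. The call of CDK1 also did not hold in a fit with a mean-dependent, robust prior. NEK2, a kinase of centrosome separation, read 7.51, 7.45 and 7.25 with vector and 6.63, 6.10 and 5.58 with ΔNp53:WTp53. It fell by 1.30 ± 0.22 (adjusted p = 0.00133). CCNB2, cyclin B2, read 9.79, 9.80 and 9.75 with vector and 9.36, 9.12 and 8.80 with ΔNp53:WTp53. It fell by 0.69 ± 0.13 (adjusted p = 0.00295). PBK, a mitotic kinase, fell by 0.95 ± 0.18. The member that rose was WEE1, the kinase that holds CDK1 inactive, from 6.55, 6.34 and 6.38 to 7.39, 7.90 and 8.06, by 1.36 ± 0.17 (adjusted p = 0.00026). CDK1, NEK2, CCNB2 and PBK did not pass without experiment 4. CDK1 did not pass without experiment 5 either. The call of CDK1 was also lost without the vector array of experiment 0, 4 or 5 or without the ΔNp53:WTp53 array of experiment 4 or 5.

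Spindle motors and cytokinesis genes fell in 28 of 29 cases (median −1.07), and none rose. KIF18A, the kinesin that dampens chromosome movement, read 7.90, 8.10 and 8.13 with vector and 6.97, 5.81 and 5.43 with ΔNp53:WTp53. It fell by 1.97 ± 0.32 (adjusted p = 0.00118). KIF15, a kinesin of the bipolar spindle, read 6.30, 6.25 and 6.29 with vector and 5.42, 4.64 and 3.72 with ΔNp53:WTp53. It fell by 1.69 ± 0.34 (adjusted p = 0.00353). Experiment 5 was the lowest for both and experiment 0 the highest. KIF4A, whose promoter is printed above, fell by 0.97 ± 0.21, with differences of −0.45, −1.02 and −1.45 in experiments 0, 4 and 5, and KIF18B fell by 0.84 ± 0.16. Of 36 kinetochore and checkpoint genes 31 fell and 1 rose. CENPC, which anchors the kinetochore to the centromere, fell by 1.27 ± 0.20, CENPL fell by 0.89 ± 0.13 and SKA2 fell by 0.85 ± 0.14, while BUB3, a checkpoint protein, rose by 0.83 ± 0.10. Of 24 cohesin, condensin and separase genes 22 fell, among them ESCO2, the cohesin acetyltransferase, by 1.84 ± 0.34, the core cohesin subunit SMC3 by 1.19 ± 0.21, STAG2 by 0.85 ± 0.13 and PDS5B by 0.96 ± 0.17. KIF18A, KIF15, KIF4A, KIF18B, SKA2, ESCO2, SMC3, STAG2 and PDS5B did not pass without experiment 4. KIF4A, KIF18B, ESCO2 and SMC3 did not pass without experiment 5 either.

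DNA replication genes fell too, 43 of 57 in 2 lists with 5 rising, at a median of −0.81 and within experiments of −0.38, −0.96 and −1.19. Without experiments 4 and 5 in turn, 2 and 5 of the 57 passed as lower, and without experiment 0 46 did. ORC2 and ORC5, subunits of the origin recognition complex, fell by 0.80 ± 0.12 and 0.65 ± 0.09. ORC4, another subunit of that complex, read 7.98, 8.01 and 7.94 with vector and 8.82, 9.23 and 9.37 with ΔNp53:WTp53. It rose by 1.17 ± 0.13 (adjusted p = 0.000159). Members of 1 complex thus changed in opposite directions. GMNN, the licensing inhibitor geminin, rose by 0.55 ± 0.10. At the fork, the helicase-nuclease DNA2 fell by 1.07 ± 0.15, the histone chaperone subunit CHAF1B fell by 0.78 ± 0.16, TIPIN fell by 0.88 ± 0.17 and RPA2, which coats single-stranded DNA, fell by 0.81 ± 0.16, whereas PCNA, the sliding clamp and a p53 target, rose by 0.47 ± 0.12. ORC2, GMNN, CHAF1B, TIPIN, RPA2 and PCNA did not pass without experiment 4. GMNN, CHAF1B and PCNA did not pass without experiment 5 either. The call of PCNA was also lost without the vector array of experiment 5.

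The enzymes that supply nucleotides fell in 11 of 21 cases and rose in 3, with a median of −0.37. The purine enzyme GART fell by 1.02 ± 0.20, the S phase subunit of ribonucleotide reductase RRM2 fell by 0.90 ± 0.20 and SHMT1 fell by 0.49 ± 0.10, while IMPDH1, which makes guanine nucleotides, rose by 0.89 ± 0.13. Of 22 genes of the Fanconi pathway and homologous recombination 18 fell and 0 rose (median −0.92). EXO1, a resection nuclease, went from 8.01, 8.21 and 8.22 to 7.23, 6.03 and 5.67 and fell by 1.84 ± 0.33. The RecQ helicase BLM fell by 1.41 ± 0.24, FANCB fell by 1.43 ± 0.24 and FANCL fell by 0.90 ± 0.18. GART, RRM2, SHMT1, EXO1, BLM, FANCB and FANCL did not pass without experiment 4. GART, SHMT1, EXO1 and FANCL did not pass without experiment 5 either.

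Regulators above these genes were mixed. Of 20 E2F, RB and MuvB genes 13 fell and 3 rose. The repressor E2F7, a p53 target, rose by 0.97 ± 0.09, LIN54, the DNA-binding subunit of MuvB, rose by 0.63 ± 0.08, E2F6 fell by 1.01 ± 0.14 and LIN37, another MuvB subunit, fell by 0.63 ± 0.08. Of 16 G1 cyclins, kinases and inhibitors 5 rose and 4 fell, and both E-type cyclins, which drive entry into S phase, moved in opposite directions. CCNE1, cyclin E1, stood at 7.71, 7.41 and 7.40 with vector and at 8.23, 8.25 and 8.06 with ΔNp53:WTp53 (experiments 0, 4 and 5). It rose by 0.68 ± 0.11. CCNE2, cyclin E2, stood at 7.16, 7.13 and 7.01 with vector and at 6.24, 4.78 and 4.97 with ΔNp53:WTp53 (experiments 0, 4 and 5). It fell by 1.77 ± 0.31. CCNA1, a cyclin best known from the germ line, rose by 3.41 ± 0.21, with differences of 2.90, 3.73 and 3.60. CCNE1 and CCNE2 did not pass without experiment 4. CCNE2 did not pass without experiment 5 either.

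Replication-dependent histone genes, which are transcribed in S phase, fell in 35 of 63 cases and rose in 1, with a median of −0.52. H4C2, 1 of several genes for histone H4, read 9.16, 9.76 and 9.69 with vector and 8.34, 7.27 and 6.92 with ΔNp53:WTp53. It fell by 2.02 ± 0.31 (adjusted p = 0.000925). Genes H4C8 and H4C3, which encode the same protein, fell by 1.59 ± 0.16 and 1.20 ± 0.12. Experiments 0, 4 and 5 gave list medians of −0.40, −0.58 and −0.57, so that experiment 0 lay closer to the others than for mitosis. Without experiments 4 and 5 in turn, 11 and 17 passed as lower, and 37 did without experiment 0. Histone genes are near-identical copies, and how far their probes read each other was not tested. Their start windows held TTTGAA in 31.0% and CCAAT in 82.8% of 58 cases. H4C2 did not pass without experiment 4.

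Of 495 measured genes named ZNF, a far larger family of zinc finger genes, 243 fell (49.1%, where 20.3% of all genes fell) and 55 rose, with a median of −0.37, and 117 fell at least 2-fold. Many encode repressors of the KRAB type that bind transposable elements. ZNF582, a KRAB zinc finger gene, read 7.94, 8.84 and 8.80 with vector and 6.23, 6.30 and 6.52 with ΔNp53:WTp53. It fell by 2.18 ± 0.21 (adjusted p = 7.81e-05). ZNF221, another gene of this family, read 8.41, 9.11 and 9.15 with vector and 6.95, 6.73 and 6.68 with ΔNp53:WTp53. It fell by 2.11 ± 0.18 (adjusted p = 4.19e-05). ZNF10, ZNF615 and ZNF227 fell by 2.14 ± 0.21, 2.04 ± 0.21 and 2.01 ± 0.24. For ZNF582 and ZNF221 the vector array of experiment 0 was lower than the other vector arrays, and the ΔNp53:WTp53 arrays lay close together. The means of the whole family were 6.22, 6.48 and 6.48 in the vector arrays of experiments 0, 4 and 5 and 6.02, 6.0 and 5.94 with ΔNp53:WTp53, so that here experiment 0 stood apart in the vector array. Against this run, ZNF296 went from 7.09, 6.95 and 6.97 to 9.96, 10.39 and 10.24 and rose by 3.19 ± 0.12 (adjusted p = 7.37e-07), and ZNF30 rose by 2.11 ± 0.15. Most of the 495 genes were also grouped by how many of their neighbours in the RefSeq gene order are zinc finger genes. The remaining genes are in none of the groups that follow. Among genes with 0 neighbouring zinc finger genes 64 of 165 fell (38.8%, median −0.15), with 1 neighbour 66 of 129 (51.2%, median −0.39) and with 2 neighbours 104 of 171 (60.8%, median −0.75). Clustered genes of this family resemble each other in sequence, and the part of probes that read several of them was not tested. Within experiments the family median was −0.22, −0.42 and −0.51, and 268 genes passed as lower without experiment 0, 112 without experiment 4 and 137 without experiment 5.

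**Figure D4:**
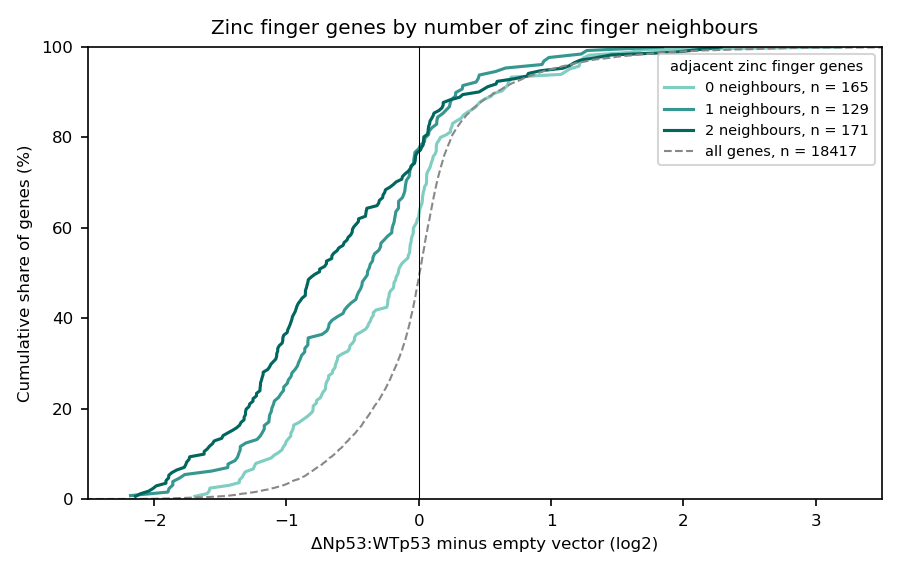
Cumulative share of genes (vertical axis, percent) by difference between ΔNp53:WTp53 and vector (horizontal axis, log2) for zinc finger genes with 0, 1 or 2 zinc finger genes beside them in the gene order (n = 165, 129 and 171) and for all 18417 genes (dashed). The curves of genes with more neighbours lie further to the left, with medians of −0.15, −0.39 and −0.75.

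Signalling genes of the Notch pathway rose in 14 of 29 cases and fell in 4. JAG2, a ligand of Notch receptors, stood at 5.87, 5.52 and 5.93 in the vector arrays of experiments 0, 4 and 5 and at 9.24, 10.38 and 10.25 in the ΔNp53:WTp53 arrays. It rose by 4.18 ± 0.31 (adjusted p = 2.26e-05). The rise was 18.1-fold, with experiment 0 the lowest of the ΔNp53:WTp53 arrays. JAG1, the related ligand, rose by 2.10 ± 0.17, the ligand DLL1 rose by 1.02 ± 0.09 and the Notch target HEYL rose by 1.45 ± 0.17. MAML2, a coactivator, fell by 0.72 ± 0.14. Among growth factor ligands 14 of 27 rose and 2 fell. KITLG, the ligand of the receptor KIT, read 4.18, 4.74 and 4.10 with vector and 7.84, 8.74 and 8.68 with ΔNp53:WTp53. It rose by 4.08 ± 0.24 (adjusted p = 8.66e-06). TGFA, a ligand of the EGF receptor, rose by 2.02 ± 0.16, and the ephrins EFNA1 and EFNB1 rose by 2.21 ± 0.23 and 2.30 ± 0.22, whereas EFNB2 fell by 0.47 ± 0.14. Of 27 growth factor receptors 11 rose and 0 fell. EPHB4, an ephrin receptor, went from 6.79, 6.57 and 6.91 to 9.0, 9.74 and 9.74, by 2.74 ± 0.20. MERTK, a receptor for apoptotic cells, rose by 2.37 ± 0.14, IGF1R rose by 1.72 ± 0.16 and MET, the receptor of hepatocyte growth factor, rose by 1.15 ± 0.10. Without experiment 4, 7, 10 and 7 genes of the 3 lists passed as higher. MAML2 and EFNB2 did not pass without experiment 4, nor without experiment 5. Leaving out experiment 0 ended the call of EFNB2. The call of EFNB2 was also lost without the vector array of experiment 4 or 5 or without the ΔNp53:WTp53 array of experiment 0 or 5.

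The TGF-beta and BMP pathway rose in 20 of 35 genes and fell in 2, with list medians of 0.42, 0.44 and 0.44 in experiments 0, 4 and 5. The mean level of this list, however, was 6.20, 6.25 and 6.27 with vector and 6.74, 6.98 and 6.91 with ΔNp53:WTp53. NOG, the BMP antagonist noggin, read 4.38, 5.15 and 4.91 with vector and 7.23, 8.24 and 7.86 with ΔNp53:WTp53. It rose by 2.97 ± 0.27 (adjusted p = 5.42e-05). TGFBR1, the type I receptor, rose by 2.01 ± 0.15, and SMAD2, which relays its signal, fell by 0.47 ± 0.09 in 1 of its 2 probe sets. Of 33 MAP kinase phosphatases and immediate-early factors 13 rose and 4 fell. SPRY1, an inhibitor of receptor signalling, rose by 2.29 ± 0.18, DUSP7, a phosphatase of ERK, rose by 1.05 ± 0.08, and JUNB rose by 1.03 ± 0.12. JUN, the AP-1 subunit c-Jun, stood at 9.84, 10.18 and 10.20 with vector and at 8.93, 9.03 and 8.77 with ΔNp53:WTp53 (experiments 0, 4 and 5). It fell by 1.16 ± 0.12, so JUN and JUNB went in opposite directions. Of 22 YAP and TEAD genes 8 rose and 5 fell. ANKRD1, a target of YAP, read 9.02, 9.70 and 9.93 with vector and 6.51, 6.71 and 6.60 with ΔNp53:WTp53. It fell by 2.94 ± 0.22 (adjusted p = 2.44e-05). It showed the largest fall of all genes, and its ΔNp53:WTp53 arrays lay close together. AMOTL1, an inhibitor of YAP, rose by 1.90 ± 0.17, while WWTR1, the YAP relative TAZ, rose by 0.70 ± 0.09 and TEAD3 rose by 1.08 ± 0.14. SMAD2 did not pass without experiment 4, nor without experiment 5.

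Matrix and integrin genes rose in 11 of 37 cases and fell in 1. VCAN, the matrix proteoglycan versican, read 3.30, 3.48 and 3.88 with vector and 7.56, 8.41 and 8.44 with ΔNp53:WTp53. It rose by 4.58 ± 0.28 (adjusted p = 8.82e-06). The groups did not overlap, but the vector levels are low on these arrays, where RMA compresses differences, so that the size of the rise is uncertain. The integrin ITGA2 rose by 2.52 ± 0.23, the laminin chain LAMC1 rose by 1.34 ± 0.13 and the integrin ITGA6 rose by 1.09 ± 0.13, while ITGA5, the fibronectin receptor subunit, fell by 1.13 ± 0.25. Of 24 cell junction genes 7 rose and 2 fell. DSP, desmoplakin of desmosomes, rose by 2.51 ± 0.23, the plaque protein JUP rose by 1.66 ± 0.20, PERP, a p53 target of desmosomes, rose by 1.60 ± 0.22, and N-cadherin CDH2 rose by 1.15 ± 0.10, whereas PKP2 fell by 0.40 ± 0.11. Among secreted senescence-associated factors 7 of 27 rose and 0 fell (2 rose without experiment 4, 2 without experiment 5 and 11 without experiment 0). SERPINE2, a protease inhibitor, rose by 3.60 ± 0.21, and the cytokine LIF rose by 1.43 ± 0.18. PLAU, urokinase, stood at 10.02, 8.67 and 8.94 with vector, where experiment 0 was the highest array, differed by 0.80, 2.26 and 2.06 within the experiments and rose by 1.71 ± 0.31. ITGA5, PKP2 and PLAU did not pass without experiment 4, nor without experiment 5. The call of PKP2 was also lost without the vector array of experiment 4 or 5 or without the ΔNp53:WTp53 array of experiment 4 or 5.

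The series title names the mTOR pathway. Its genes moved both ways, with 7 of 32 higher and 10 lower and a median of −0.07. SESN1, given above, is in this list, as is NPRL2, a subunit of the GATOR1 brake on mTOR complex 1, which went from 6.13, 6.27 and 6.05 to 7.17, 7.91 and 7.98 and rose by 1.54 ± 0.19. ULK1, the autophagy kinase inhibited by mTOR, rose by 0.88 ± 0.14. RPS6KB1, the S6 kinase downstream of mTOR complex 1, fell by 0.78 ± 0.13. Of 12 AMPK subunits and upstream kinases 3 rose and 4 fell. STK11, the kinase LKB1, rose by 0.79 ± 0.10, and PRKAB1, a regulatory subunit of AMPK, rose by 0.60 ± 0.08, whereas both catalytic subunits, PRKAA1 and PRKAA2, fell by 0.74 ± 0.15 and 1.23 ± 0.20. In IGF and insulin signalling 13 of 27 genes rose and 1 fell, with medians of 0.34, 0.28 and 0.33 in experiments 0, 4 and 5. The mean level of this list was 6.21, 6.32 and 6.33 with vector and 6.64, 6.88 and 6.83 with ΔNp53:WTp53. PIK3R1, the regulatory subunit of phosphoinositide 3-kinase, went from 7.35, 7.23 and 7.28 to 9.18, 9.93 and 9.84, by 2.37 ± 0.21. The adaptors GAB1 and IRS1 rose by 2.23 ± 0.20 and 0.98 ± 0.13, the former in 1 of its 2 probe sets, and PHLPP1, a phosphatase of AKT, fell by 0.47 ± 0.12 in 1 of its 2 probe sets. RPS6KB1, PRKAA1, PRKAA2 and PHLPP1 did not pass without experiment 4. RPS6KB1, PRKAA1 and PHLPP1 did not pass without experiment 5 either. The call of PHLPP1 was also lost without the ΔNp53:WTp53 array of experiment 4.

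Mitochondrial genes, also named in the title, differed between lists, and are set beside the 15.3% of all probe sets that rose and the 20.1% that fell. Of 34 complex I subunits 9 fell (26.5%) and 2 rose, with a median of −0.18 and of −0.16, −0.21 and −0.15 in experiments 0, 4 and 5. NDUFS1, NDUFB3, NDUFA9 and NDUFA6 fell by 0.59 ± 0.10, 0.60 ± 0.10, 0.49 ± 0.09 and 0.41 ± 0.08, and NDUFB2 rose by 0.50 ± 0.12. Of 36 genes of complexes II to V 5 fell (13.9%) and 2 rose. SDHA, the flavoprotein of complex II, stood at 9.61, 9.51 and 9.54 with vector and at 10.46, 10.74 and 10.68 with ΔNp53:WTp53 (experiments 0, 4 and 5). It rose by 1.07 ± 0.09, while SDHD, a membrane anchor of the same complex, fell by 0.67 ± 0.17. Mitochondrial ribosomal proteins fell in 44 of 74 cases (59.5%) and rose in 4 (median −0.31), with MRPL1 down by 1.05 ± 0.12 and MRPL49 up by 1.08 ± 0.11. Of cytosolic ribosomal proteins 4 of 67 fell and 2 rose, at a median of −0.04. NDUFS1, NDUFB3, NDUFA9, NDUFA6, NDUFB2 and SDHD did not pass without experiment 4. NDUFA9, NDUFB2 and SDHD did not pass without experiment 5 either.

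Protein import into mitochondria fell in 15 of 30 genes and rose in 2 (median −0.29). TIMM44, which ties the import motor to the channel, went from 9.28, 9.35 and 9.44 to 8.49, 8.38 and 8.25 and fell by 0.99 ± 0.09 (adjusted p = 5.92e-05). GRPEL2, TIMM21 and TIMM9 fell by 1.18 ± 0.18, 0.76 ± 0.12 and 0.56 ± 0.09, and SAMM50, which inserts outer membrane proteins, rose by 0.75 ± 0.15. Of 24 genes of mitochondrial DNA, biogenesis and dynamics 13 fell and 2 rose (median −0.35). PPARGC1A, the coactivator PGC-1α of mitochondrial biogenesis, stood at 5.39, 5.47 and 5.79 with vector and at 6.31, 6.80 and 6.77 with ΔNp53:WTp53 (experiments 0, 4 and 5). It rose by 1.08 ± 0.15, whereas its relative PPRC1 fell by 1.0 ± 0.14, the transcription factor NRF1 fell by 0.55 ± 0.08 and MTERF1, which ends mitochondrial transcription, fell by 1.06 ± 0.15. Of 26 genes of the citric acid cycle and pyruvate entry 10 fell and 5 rose. Subunits of pyruvate dehydrogenase were lower, PDHX by 0.96 ± 0.13 and DLAT by 0.71 ± 0.12, and PDK3, a kinase that inhibits that enzyme, rose by 1.01 ± 0.14. ME1, the cytosolic malic enzyme, rose by 0.70 ± 0.10. Counts of lower genes in the 5 lists of complex I, ribosomal proteins, import, mitochondrial DNA and the citric acid cycle were 0, 2, 2, 3 and 1 without experiment 4, and 11, 48, 17, 13 and 11 without experiment 0. TIMM21, TIMM9, SAMM50 and DLAT did not pass without experiment 4. SAMM50 did not pass without experiment 5 either.

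Genes of amino acid supply moved both ways, and those that charge tRNAs fell. Of 27 ATF4 targets 10 fell and 6 rose. ASNS, asparagine synthetase, read 10.57, 10.42 and 10.55 with vector and 9.33, 9.14 and 9.07 with ΔNp53:WTp53. It fell by 1.33 ± 0.13 (adjusted p = 9.01e-05). SLC7A11, the cystine transporter, read 8.66, 8.68 and 8.88 with vector and 7.27, 6.93 and 6.28 with ΔNp53:WTp53. It fell by 1.91 ± 0.24 (adjusted p = 0.000296). CTH, which makes cysteine, fell by 1.28 ± 0.15, and ALDH1L2, a mitochondrial folate enzyme, rose by 1.85 ± 0.18. Of 19 cytosolic aminoacyl-tRNA synthetases 14 fell and 1 rose (median −0.39). AARS1, MARS1, CARS1 and YARS1 fell by 1.40 ± 0.21, 0.95 ± 0.15, 0.73 ± 0.08 and 0.46 ± 0.09, and SARS1 rose by 0.40 ± 0.10. Of 24 endoplasmic reticulum chaperones 4 rose (16.7%) and 4 fell (16.7%), close to the 15.7% and 20.3% of all genes. Among them EDEM1, which passes misfolded proteins to degradation, rose by 1.48 ± 0.13 and the stress sensor ATF6 fell by 0.78 ± 0.16. Cholesterol and fatty acid synthesis showed 2 of 24 higher (8.33%) and 4 lower (16.7%), both under the shares of all genes. With the block 7 were lower. ACACA, acetyl-CoA carboxylase, rose by 0.57 ± 0.10 and CYP51A1 fell by 0.43 ± 0.13. Of 36 autophagy and lysosome genes 12 fell and 5 rose. DRAM1, a lysosomal p53 target, rose by 2.53 ± 0.16, whereas ATG4C, ATG5 and the cargo receptor NBR1 fell by 1.22 ± 0.16, 0.70 ± 0.09 and 0.61 ± 0.08. MARS1, YARS1, SARS1, ATF6, ACACA and CYP51A1 did not pass without experiment 4. YARS1, SARS1, ATF6 and CYP51A1 did not pass without experiment 5 either. The call of CYP51A1 was also lost without the vector array of experiment 0 or 5 or without the ΔNp53:WTp53 array of experiment 4 or 5.

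Genes linked to progeroid syndromes, the lamina and telomeres fell in 17 of 28 cases and rose in 1, with a median of −0.49 and of −0.21, −0.49 and −0.67 in experiments 0, 4 and 5. BLM, counted above with recombination, is part of this list. ERCC4, the repair nuclease XPF, went from 7.17, 7.29 and 7.49 to 6.43, 6.25 and 5.82 and fell by 1.15 ± 0.15. TERF1 and TERF2, which coat telomeres, fell by 0.92 ± 0.14 and 0.72 ± 0.12. The member that rose was LMNA, which encodes lamins A and C, by 0.79 ± 0.15. Without experiments 4 and 5 in turn 1 and 5 passed as lower, and without experiment 0 18 did. TERF1, TERF2 and LMNA did not pass without experiment 4. LMNA did not pass without experiment 5 either.

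Further large changes lay outside these lists. SLC4A11, a membrane transporter, read 5.34, 5.63 and 5.60 with vector and 9.31, 10.85 and 10.67 with ΔNp53:WTp53. It rose by 4.75 ± 0.37 (adjusted p = 2.71e-05). It showed the largest rise of all genes, 27.0-fold, with differences of 3.97, 5.22 and 5.07 in experiments 0, 4 and 5. FAM13C stood at 4.43, 4.63 and 4.55 with vector and at 8.91, 9.26 and 9.34 with ΔNp53:WTp53, and rose by 4.63 ± 0.13. PIWIL4, a PIWI family protein, rose by 3.85 ± 0.20, the phosphodiesterase PDE3A rose by 3.83 ± 0.25, CYFIP2, a subunit of the WAVE complex, rose by 3.77 ± 0.19, and SLC30A10, a manganese exporter, rose by 3.68 ± 0.26. Among the falls, CALHM4 stood at 6.41, 7.47 and 7.51 with vector and at 4.18, 5.17 and 5.16 with ΔNp53:WTp53, and fell by 2.30 ± 0.33. C5orf34 fell by 2.26 ± 0.34 and GORAB, a Golgi protein lost in a skin disease of early ageing, fell by 2.0 ± 0.27. FAM111B, a serine protease, read 7.76, 7.62 and 7.75 with vector and 6.91, 4.85 and 4.41 with ΔNp53:WTp53. It fell by 2.32 ± 0.52 (adjusted p = 0.00639). FAM111B did not pass without experiment 4, nor without experiment 5.

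A few genes departed most between experiment 0 and the others. Besides CDK1 and FAM111B, the mitotic spindle gene CKAP2L had differences of −0.37, −2.23 and −2.54 in experiments 0, 4 and 5: its ΔNp53:WTp53 level was 7.38, 5.39 and 5.04 while vector stayed at 7.75, 7.61 and 7.58. CRISPLD2, a secreted protein, had differences of 2.18, 4.56 and 4.68. IFI30, a lysosomal thiol reductase, stood at 8.23, 6.26 and 6.25 with vector and at 9.17, 9.75 and 9.87 with ΔNp53:WTp53. LAMP3, a lysosomal membrane protein, stood at 7.51, 5.52 and 5.81 and 8.53, 8.79 and 8.82. For both the vector array of experiment 0 was the highest of its group. Some called differences were larger in experiment 0: SNORD13P2 had 1.86, 1.62 and 0.74, TMEM133 0.96, 0.38 and 0.19, FAM86B3P −1.32, −0.69 and −0.32, AMOT 1.20, 0.59 and 0.39, RAB43 1.14, 0.20 and 0.86 and ZNF597 0.86, 0.35 and 0.13.

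Interferon-stimulated genes were high in all 3 arrays of experiment 0, whatever the plasmid. The mean of the 28 measured genes was 8.36 in the vector array of experiment 0 and 6.20 and 6.09 in those of experiments 4 and 5. It was 8.18, 6.27 and 6.34 with ΔNp53:WTp53 and 7.94, 6.32 and 6.38 with WTp53. The array of experiment 0 was above both others for 27 of the 28 genes with vector, 26 with ΔNp53:WTp53 and 26 with WTp53, against 34.7%, 35.8% and 38.8% of all probe sets. OAS1, which senses double-stranded RNA, stood at 8.60, 4.75 and 4.42 with vector and at 8.26, 4.62 and 4.80 with ΔNp53:WTp53, the highest array of both groups being that of experiment 0. IFI6 and IFI44L, picked like OAS1 after their values were seen, had vector levels of 12.03, 9.61 and 9.39 and of 9.06, 4.88 and 4.47. Of the list 2 genes rose and 0 fell, with a median difference of −0.20, 0.01 and 0.19 in experiments 0, 4 and 5. With arrays paired by experiment as a block, 4 rose and 7 fell, and without experiment 0, 8 rose and 8 fell. IRF1, an interferon response factor and p53 target, stood at 8.75, 7.09 and 7.13 with vector and at 9.62, 9.59 and 9.48 with ΔNp53:WTp53 (experiments 0, 4 and 5). It rose by 1.91 ± 0.36, by 0.87, 2.50 and 2.35 within the experiments. IRF5, another factor of this family, rose by 0.71 ± 0.10. The part of these levels in the smaller response of experiment 0 was not tested. IRF1 did not pass without experiment 4, nor without experiment 5.

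**Figure D5:**
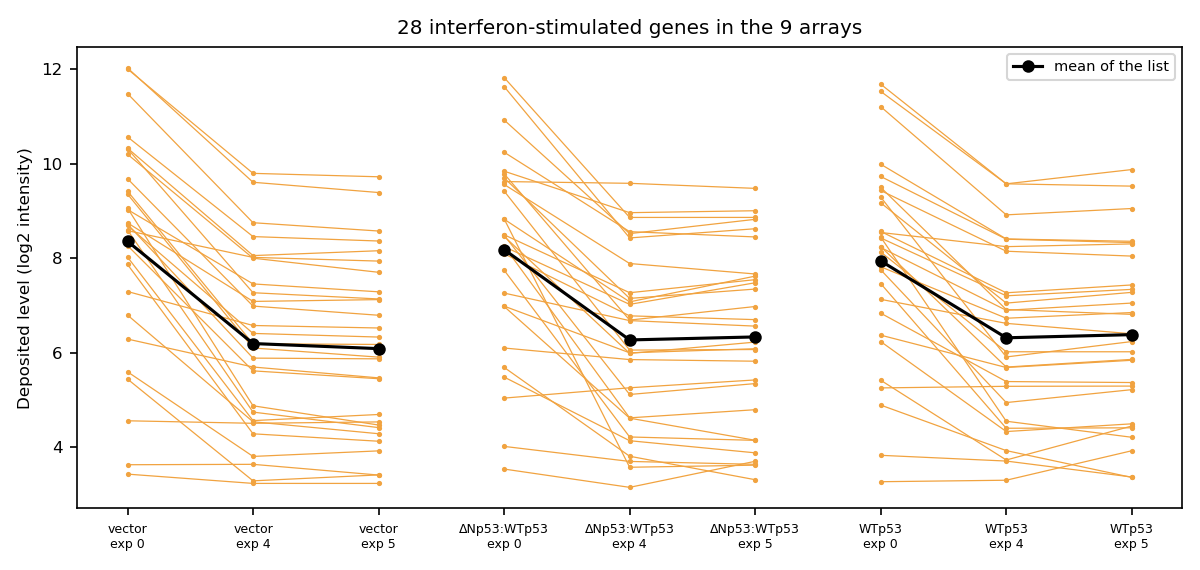
Deposited levels (log2 intensity) of 28 interferon-stimulated genes in each of the 9 arrays of experiments 0, 4 and 5, grouped by plasmid, with lines joining a gene across experiments and the list mean in black. In each group the mean is higher in experiment 0 (8.36, 8.18 and 7.94) than in experiments 4 and 5 (6.09 to 6.38).

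The fit also tested ΔNp53:WTp53 directly against WTp53, in arrays of the same experiments. Of 19460 probe sets, 291 were higher (1.5%) and 164 lower (0.843%) with ΔNp53:WTp53, 455 in all (2.34%). This count moved with the arrays used: it was 820 with the experiment as a block, 2541 without experiment 0, 1 without experiment 4 and 0 without experiment 5 (limma, where 1309 and 1854 probe sets had an unadjusted p under 0.05 without experiments 4 and 5). Against the vector arrays, which both comparisons share, WTp53 gave 2898 probe sets higher (14.9%) and 3183 lower (16.4%), beside the 2982 and 3918 of ΔNp53:WTp53.

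The 3 lists with the lowest medians in this comparison were of mitosis genes: spindle motors, mitotic kinases and kinetochore genes. Over the 114 genes the median of ΔNp53:WTp53 minus WTp53 was −0.68, with 11 lower and 0 higher (39 lower with the block, 85 without experiment 0). Against vector, 21 of them were lower and 5 higher with WTp53, at a median of −0.28, beside 101 and 2 at −1.01 with ΔNp53:WTp53. Between ΔNp53:WTp53 and WTp53 the list means lay closest in experiment 0 in each list of mitosis genes. Spindle motor genes had means of 8.05, 7.22 and 6.69 in experiments 0, 4 and 5, against 8.25, 8.25 and 8.12 with WTp53. Those of cohesin, condensin and separase genes were 8.10, 7.45 and 7.14, against 8.10, 7.97 and 7.88. CCNB2 stood at 9.36, 9.12 and 8.80 with ΔNp53:WTp53 and at 9.74, 9.93 and 9.69 with WTp53, a difference of −0.69 ± 0.13 (adjusted p = 0.0306). NEK2 stood at 6.63, 6.10 and 5.58 and 7.19, 7.34 and 7.07, a difference of −1.10 ± 0.22 (adjusted p = 0.0328). For both genes the WTp53 arrays varied less than those of ΔNp53:WTp53. KIF4A differed by −1.02 ± 0.21 (adjusted p = 0.0398) and PBK by −0.93 ± 0.18 (adjusted p = 0.033). For CDK1 the difference was 0.57 ± 0.61 (adjusted p = 0.706) and did not pass. Of 57 replication genes 0 passed, at a median of −0.39, with 3 lower under the block and 37 without experiment 0.

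The p53 target and feedback lists held 2 of 76 genes higher and 5 lower than with WTp53, at a median of −0.07. CDKN1A differed by −0.93 ± 0.26 (adjusted p = 0.103) and MDM2 by −0.31 ± 0.11 (adjusted p = 0.177), and neither passed. GDF15 was lower with ΔNp53:WTp53, at 6.81, 6.86 and 7.21 against 8.15, 8.21 and 8.22, a difference of −1.23 ± 0.12 (adjusted p = 0.00287). PLK3 was higher, at 8.78, 9.68 and 9.61 against 7.86, 8.22 and 8.19, a difference of 1.27 ± 0.21 (adjusted p = 0.0192). TRIM24 was higher too (0.85 ± 0.10, adjusted p = 0.00471), and RRM2B lower (−0.55 ± 0.09, adjusted p = 0.017). Of 33 MAP kinase phosphatases and immediate-early factors 7 were higher and 0 lower, among them JUNB (0.64 ± 0.12, adjusted p = 0.0272) and DUSP7 (0.47 ± 0.08, adjusted p = 0.0191). In IGF signalling IRS1 was higher, at 5.79, 6.20 and 5.78 against 4.72, 4.81 and 4.80 (1.14 ± 0.13, adjusted p = 0.00398), and of 34 complex I subunits 4 were lower, including NDUFB3 (−0.52 ± 0.10, adjusted p = 0.0314).

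The 5 genes lower than with WTp53 at the smallest p had risen with WTp53, and with ΔNp53:WTp53 they stood much closer to vector. GDF9, a TGF-beta family factor, stood at 4.0, 4.16 and 4.13 with vector, 4.42, 4.61 and 4.60 with ΔNp53:WTp53 and 6.92, 7.43 and 7.13 with WTp53, and rose by 0.44 ± 0.13 over vector. It differed from WTp53 by −2.62 ± 0.13 (adjusted p = 3.94e-05). SERPINB5, the serpin maspin, stood at 2.89, 3.05 and 2.94 with vector, 3.21, 3.39 and 3.35 with ΔNp53:WTp53 and 5.0, 5.54 and 5.34 with WTp53, a difference from WTp53 of −1.98 ± 0.13 (adjusted p = 0.000369). Against vector SERPINB5 differed by 0.35 ± 0.13, which did not pass (adjusted p = 0.0601). INPP5D, an inositol phosphatase, SLC2A2, a glucose transporter, and SLC46A1, a folate transporter, were lower than with WTp53 by 1.39 ± 0.10, 1.67 ± 0.16 and 1.13 ± 0.11. CHAC1, which degrades glutathione, went the other way, at 7.98, 7.80 and 7.86 with vector, 8.51, 9.02 and 8.95 with ΔNp53:WTp53 and 7.42, 7.29 and 7.24 with WTp53, a difference from WTp53 of 1.51 ± 0.13 (adjusted p = 0.00182). ZBTB1, a zinc finger repressor, SMARCA2, an ATPase of SWI/SNF complexes, VLDLR, a lipoprotein receptor, and CREBZF, a bZIP factor, were higher than with WTp53 by 1.14 ± 0.10, 0.86 ± 0.08, 1.06 ± 0.11 and 0.89 ± 0.08. The rise of GDF9 over vector did not pass without experiment 4, nor without experiment 5. The call of GDF9 was also lost without the vector array of experiment 0 or 5 or without the ΔNp53:WTp53 array of experiment 4 or 5. Of the differences from WTp53 named here, only that of GDF9 passed without experiment 4, and none passed without experiment 5.

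The next families are set beside the same background, 15.3% of all probe sets higher and 20.1% lower. Of 361 olfactory receptor genes 6 rose and 2 fell, and of 68 keratin-associated protein genes 1 rose and 0 fell. Both families are silent in most tissues, and their called members differed by small amounts, such as OR52K1 by 0.33 ± 0.09 and KRTAP10-1 by 0.32 ± 0.10. Of 67 cytosolic ribosomal protein genes 2 rose and 4 fell. RPS27L, a p53-induced relative of a ribosomal protein, read 6.71, 6.45 and 6.54 with vector and 8.23, 8.41 and 8.81 with ΔNp53:WTp53. It rose by 1.92 ± 0.14 (adjusted p = 2.44e-05). RPL22L1, a relative of another, fell by 1.13 ± 0.21. Of 37 proteasome subunits 0 rose and 9 fell (24.3%), including PSMC6 by 0.80 ± 0.12 and PSMD3 by 0.50 ± 0.09. OR52K1, KRTAP10-1, RPL22L1, PSMC6 and PSMD3 did not pass without experiment 4. OR52K1, KRTAP10-1 and RPL22L1 did not pass without experiment 5 either. The call of OR52K1 was also lost without the vector array of experiment 4 or without the ΔNp53:WTp53 array of experiment 4. The call of KRTAP10-1 was also lost without the vector array of experiment 4 or without the ΔNp53:WTp53 array of experiment 4 or 5.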

How the data were processed

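The values are log2 intensities of Affymetrix Gene arrays as the authors deposited them in 1 table; per the submitters' processing notes they used RMA and Affymetrix Expression Console, with versions not given in the sources used here. RMA corrects background, normalizes by quantiles across the arrays it is run on and summarizes probes, so values are comparable between arrays but compressed at low levels. Nothing further was normalized. Probe sets were named from the platform's annotation table: 19460 had exactly 1 symbol and were tested, 1754 had several and 12083 were not listed, and both of these were left out. The probe set of the transfected gene is not reported here. Group means were fitted with limma 3.58.1 (lmFit and eBayes, R 4.3.3) to 9 arrays, those of the 3 plasmids in experiments 0, 4 and 5, with 6 residual degrees of freedom, two-sided tests and Benjamini-Hochberg adjustment over all 19460. An earlier account of these data fitted all 18 arrays, which is an alternative here. The fit was tested on simulated data first. The number of arrays limits the precision.

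Where a gene had several probe sets, the row of highest mean over the 9 arrays stood for it. Genes were named by a rule: CDKN1A and MDM2, the 12 largest rises and falls, up to 4 members of each list by smallest p and 1 against the list's direction, 2 of each family, 6 genes each with experiment 0 most below and most above the others, and 5 each way against WTp53. The members and lists were chosen with earlier results of these data known. Arrays of the same experiment deviated together from their group means in 9 of 9 pairs (correlations across probe sets of 0.11 to 0.57, against −0.49 to 0.34 for different experiments). These values set experiment 0 apart. Pairs between experiments 4 and 5 (0.15 to 0.34) correlated about as much as pairs within either (0.11 to 0.31). A fit with the experiment as a block was an alternative. The others were 6 arrays, 18 arrays, array weights, a trended robust prior, rows above the median level, quantile normalization again, median centring, 1 row per gene, all rows, and leaving out each array or experiment. Motifs were counted on both strands in RefSeq windows (GRCh38.p14) with Python 3.11.15, and figures drawn with matplotlib 3.10.9.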

Additional observations from a re-analysis of the deposited data

How the results depend on the processing

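The 6900 probe sets called against vector numbered 1886 without experiment 4 and 2609 without experiment 5, and between 5362 and 10044 under every other alternative run; leaving out 1 array gave 5362 to 8073, and the replicate block, which pairs arrays by experiment, gave 7416 and kept 6762 of the calls. The 2982 higher became 4648 with array weights, 1227 without experiment 4 and 1478 without experiment 5, and the 3918 lower became 659 and 1131 without experiments 4 and 5. The 622 at least 2-fold lower were 1134, 259 and 241 without experiments 0, 4 and 5, and 389 to 1036 with 1 array left out. The 455 differences from WTp53 became 820 with the replicate block, 95 with 6 arrays, 2785 with 18 arrays, 4635 with array weights, 54 to 2355 with 1 array left out, and 2541, 1 and 0 without experiments 0, 4 and 5 (for the last, limma gave 1854 at an unadjusted p under 0.05). The cause of these shifts was not tested. Of 222 called genes among the 230 named, 85 lost their call without experiment 4, 53 without experiment 5 and 4 without experiment 0, and 0 to 15 did under the other alternatives; the replicate block ended none of them, while among the interferon-stimulated genes it called 4 higher and 7 lower in place of 2 and 0. Signs turned only for genes not called against vector: CREBZF ran from −0.0065 to 0.0965 with 1 array left out, and SLC46A1 from −0.0141 to 0.1485, with −0.0038 after quantile normalization again and −0.0042 without experiment 4. Levels low on the arrays lie near background, where RMA compresses differences.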

Other observations

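Of 376 solute carrier genes, which move ions and small molecules across membranes, 75 rose and 46 fell with ΔNp53:WTp53, where 15.7% of all genes rose and 20.3% fell. SLC30A1, which exports zinc, stood at 6.87, 6.60 and 6.52 in the vector arrays of experiments 0, 4 and 5 and at 9.10, 9.61 and 9.52 with ΔNp53:WTp53. It rose by 2.75 ± 0.14 (limma, adjusted p = 5.04e-06), and the groups did not overlap. SLC35E4 rose by 2.80 ± 0.19. Of 44 kinesins 8 rose and 17 fell. The members that rose included motors best known from transport in neurons, KIF1B by 1.37 ± 0.21 and KIF21A by 0.88 ± 0.13, while mitotic kinesins such as KIF18A were among those that fell. Of 55 tripartite motif genes, many of them ubiquitin ligases, 11 rose and 8 fell, with TRIM8 higher by 1.76 ± 0.13 and TRIM7 by 1.49 ± 0.09. Of 19 members of the TNF receptor superfamily 7 rose and 1 fell, and TNFRSF1A, a receptor of TNF, rose by 0.48 ± 0.09. TNFRSF1A did not pass without experiment 4, nor without experiment 5.

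Small nucleolar RNAs guide the modification of ribosomal RNA. Of 115 C/D box RNAs 4 rose and 14 fell (12.2%), and of 77 H/ACA and Cajal body RNAs 4 rose and 15 fell (19.5%), where 15.7% of all genes rose and 20.3% fell. With arrays paired by experiment as a block, 24 of the C/D box RNAs and 20 of the others fell. Over all probe sets 4231 fell with the block and 3918 without it. SNORD45C went from 6.40, 6.66 and 6.57 to 5.84, 5.41 and 5.45 and fell by 0.98 ± 0.13, and SNORD81 fell by 0.84 ± 0.13. SNORA74A fell by 1.02 ± 0.16, whereas SNORA2B rose by 0.77 ± 0.10. Without experiment 0 the counts were 6 higher and 24 lower for the C/D box RNAs and 7 and 23 for the others; without experiment 4 they were 1 and 3, and 1 and 4.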
